A study of Canis lupus familiaris with 37 samples.

Results

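This report describes 24 canine genes that had sequencing reads in the T-cell line CL-1 and almost none in any other sample of the series. They were selected on their measured levels. A level is given in CPM, the reads of a gene per 1000000 reads counted on all genes of that sample. A gene was a member when it reached at least 5 CPM in both CL-1 samples and stayed below 1 CPM in each of the other 35 samples. Genes that the study listed as differentially expressed microRNAs or long non-coding RNAs were left out. Other non-coding genes were not removed. The rule kept 24 of 32704 annotated Ensembl gene ids, of which 25270 had at least 1 read in the series. Since every sample entered the rule, the contrast between CL-1 and the rest is given as a description, and no test is taken as support for it.

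The series holds RNA-seq read counts of 37 dog samples. The cell lines were CL-1 (2 samples), OSW (4 samples), GL-1 (1 sample), CLBL-1 (5 samples) and CLBL-1M (5 samples). CL-1 and OSW came from canine T-cell lymphoma and GL-1 from canine B-cell lymphoma, while CLBL-1M was derived from a tumour that the B-cell line CLBL-1 formed in a mouse. The tissue samples were 12 B-cell lymphomas, 3 intestinal lymphomas, 1 T-cell lymphoma and 4 controls, which are lymph nodes without neoplasia. No treatment, genotype or age was labelled for these groups. Each line is a single isolate, and nothing in the labels says that its samples were separate cultures, so the spread between the 2 CL-1 samples may be technical. The source label of CL-1 gives a T-cell origin, whereas its flow cytometry label gives a B-cell origin. The source label of control replicate 4 is that of a T-cell line. Comparisons with controls include this library unless stated otherwise, also those on the B cell receptor list. The calls of id neighbours against controls were repeated without it, and neighbours whose call changed are named. The names of the deposited files give CLBL-1 and CLBL-1M the other way round than the sample titles. The titles are followed here, so values given for one of these lines may belong to the other, while the rule for the members does not depend on it.

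Each cell type keeps most genes of other tissues shut, through chromatin state and through the absence of the transcription factors that would switch them on. Ectopic expression is the use of a gene outside the tissues that normally express it, and it is common in tumours and in long-cultured lines. Whether a gene is normally used in other dog tissues was not measured in this series, so "ectopic" here can mean no more than present in CL-1 and below 1 CPM in the lymphoid samples compared. In bulk RNA, fewer cells of a type and less RNA per cell cannot be told apart. The ids were not paired with gene symbols here, and the members are therefore named by their Ensembl ids. FLT3, which is no member, is named because the study's text gives its id. Of the 24 members, 1 was listed under a functional term in the study's shortened annotation tables. This was ENSCAFG00000006714, annotated with ATP binding, a property shared by kinases, helicases, transporters and many other proteins.

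The samples had between 1962722 and 4863730 reads on genes. CL-1 replicate 1 had 2910014 and CL-1 replicate 2 had 3225802. A level of 1 CPM therefore corresponds to a few reads. The floor set here for a count of 0 was 3 reads, which equalled 0.617 to 1.53 CPM depending on the sample. Reads that overlapped several genes at once and so were not assigned made up 0.363% to 0.549% of reads in the cell lines other than CL-1, 0.392% and 0.409% in CL-1, and 0.0977% to 0.229% in the lymphomas. Their share was 0.129% to 0.143% in controls 1 to 3 and 0.476% in control replicate 4, which thus lay within the range of the cell lines. A contrast of CL-1 with controls 1 to 3 cannot be told apart from this difference, whereas CL-1 and OSW had like shares. The lineage of CL-1 was not checked on named markers. On the 20 ids that the study listed under B cell receptor signalling, 10 were lower and 1 was higher in CL-1 than in controls by edgeR's quasi-likelihood test at an adjusted p of at most 1e-05, beside 4.23% lower and 4.54% higher among all 15162 genes tested. The median log2 fold change was -5.37 over the list and -0.23 over all genes. Against OSW, the list ids called lower were ENSCAFG00000007034 (log2 fold change -10.8, edgeR adjusted p = 3.21e-11) and ENSCAFG00000019989 (-4.69, edgeR adjusted p = 9.05e-07). ENSCAFG00000014463 was called higher than in OSW (5.30, edgeR adjusted p = 2.66e-10). The other ids of the list missed the threshold against OSW, where 2.25% of all genes were lower and 1.83% higher. The study chose that list on these samples, so it is not independent evidence of its direction.

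In CL-1, most members had fewer reads than the median expressed gene. The limit of 1 CPM elsewhere kept out some more abundant genes, so these levels depend on the rule. Their reads added up to 756 CPM in replicate 1 and 812 CPM in replicate 2, which was 0.0756% and 0.0812% of the gene reads of these samples. CPM is not corrected for gene length, so the order of the members is an order of reads, not of transcript numbers. The median member had a mean of 17.7 CPM, against 46.9 CPM for the median of the 10383 genes that reached 5 CPM in both CL-1 samples. Of the 24 members, 5 lay at or above that median. By mean level, 8 members lay below 10 CPM, 4 between 10 and 20, 8 between 20 and 50, 2 between 50 and 100, and 2 above 100 CPM.

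The 4 most abundant members made up 54.5% of the summed member level, and the highest alone 22.2%. ENSCAFG00000031459 had 150 CPM (437 reads) and 197 CPM (636 reads) in CL-1 replicates 1 and 2, where it ranked 1548 and 1062 among all genes. ENSCAFG00000006714, the gene annotated with ATP binding, had 104 and 112 CPM. ENSCAFG00000031246 had 91.1 and 77.8 CPM, and ENSCAFG00000008607 had 62.2 and 59.8 CPM. Outside CL-1, none of these 4 genes exceeded 0.947 CPM in any sample, and the range of the CL-1 samples did not touch that of the others, as the rule requires.

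The next tier was ENSCAFG00000031769 (43.0 and 50.8 CPM) and ENSCAFG00000013623 (48.8 and 41.5 CPM). It was followed by ENSCAFG00000008149 (28.9 and 32.2 CPM), ENSCAFG00000025559 (30.6 and 30.4 CPM) and ENSCAFG00000037981 (27.5 and 29.5 CPM). ENSCAFG00000032066 had 24.4 and 27.9 CPM, ENSCAFG00000003201 had 25.4 and 24.2 CPM, and ENSCAFG00000005957 had 19.6 and 25.4 CPM. These 8 genes had 57 to 164 reads in a CL-1 sample, so that each was seen in both libraries well above the level of a few reads. The lower tier began with ENSCAFG00000030494 (14.4 and 11.5 CPM), ENSCAFG00000019049 (13.1 and 12.1 CPM), ENSCAFG00000036767 (8.59 and 14.0 CPM) and ENSCAFG00000023386 (9.28 and 10.9 CPM). The remaining members were ENSCAFG00000030012, ENSCAFG00000019746, ENSCAFG00000005453, ENSCAFG00000002141, ENSCAFG00000036337, ENSCAFG00000023339, ENSCAFG00000037857 and ENSCAFG00000034372, with 5.15 to 10.2 CPM. Their levels rested on 15 to 33 reads per CL-1 sample.

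**Figure D1:**
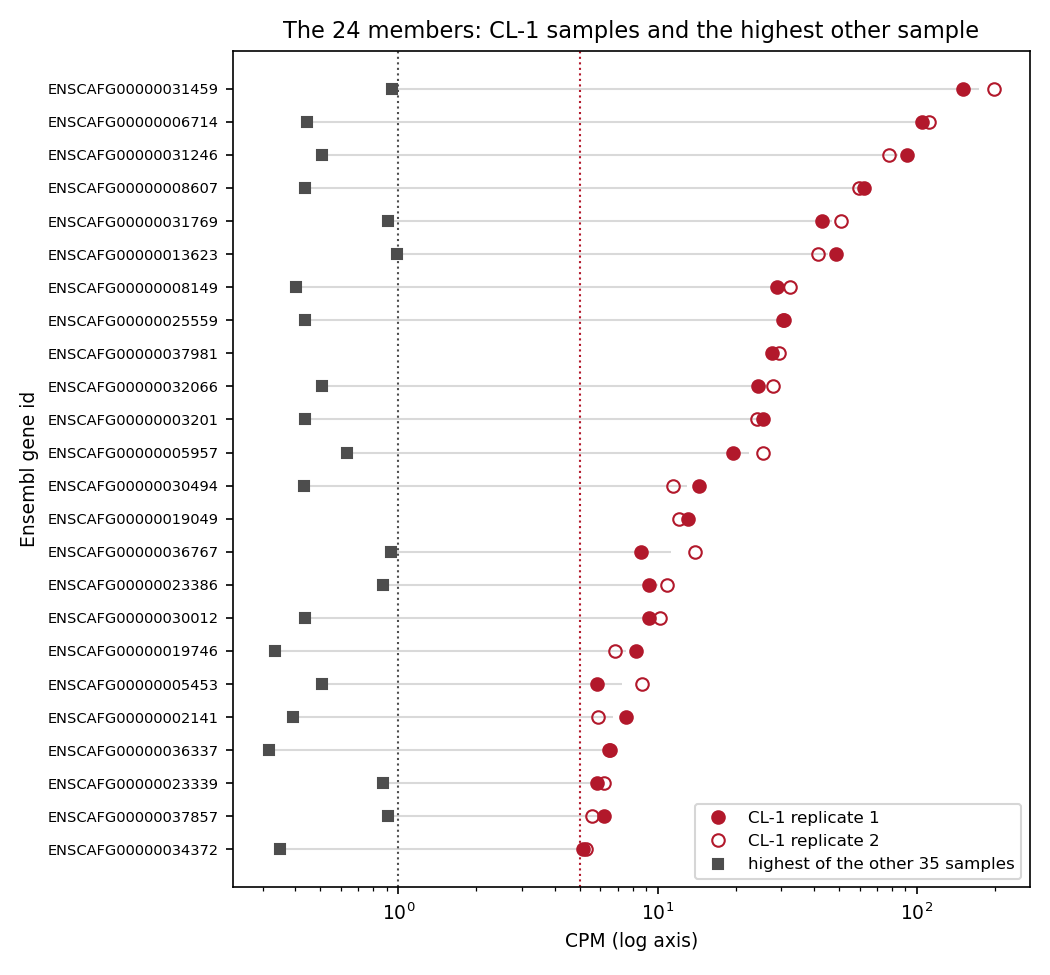
Level of each of the 24 members in CPM on a log axis, with CL-1 replicate 1 as filled circles, CL-1 replicate 2 as open circles and the highest of the other 35 samples as grey squares; dotted lines mark the limits of 5 and 1 CPM. The CL-1 values run from 5.15 to 197 CPM, and ENSCAFG00000037981 and ENSCAFG00000019049 have no square because they had no read outside CL-1.

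The 2 CL-1 samples gave nearly the same level for most members. The median absolute log2 ratio between them was 0.18 over the members and 0.17 over all 10383 genes at 5 CPM or more in both. Of the members, 13 were higher in replicate 2 and 11 in replicate 1. A chi-square of the counts of both libraries against equal shares averaged 1.65 per gene over the members and 2.46 per gene over 12433 genes, so the CL-1 libraries differed by more than sampling noise and were kept as 2 samples. ENSCAFG00000036767 differed most, with 25 reads in replicate 1 and 45 in replicate 2, a log2 ratio of 0.70.

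Outside CL-1, the members were close to silent. The other 35 samples held 109 reads on members among 102797123 gene reads, against 4818 among 6135816 in CL-1. Of the 840 combinations of a member and another sample, 88 (10.5%) had any read, and 74 of these had exactly 1. The highest count of a member in another sample was 4 reads. By member, 2 had no read in any other sample, 14 had 1 to 3 reads and 8 had more than 3.

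ENSCAFG00000037981 and ENSCAFG00000019049 had 0 reads in all other 35 samples. With a floor of 3 reads over these samples together, ENSCAFG00000037981 was at least 977-fold higher in CL-1 and ENSCAFG00000019049 at least 430-fold higher. ENSCAFG00000006714 had 2 reads elsewhere, 1 in each of 2 lymphoma samples, and its ratio of pooled CPM was 5554 with a 95% exact counting interval of 1531 to 45955. ENSCAFG00000031459 had 14 reads spread over 11 other samples, of which CLBL-1 replicate 5 had 3 (0.947 CPM), and its ratio was 1284 (interval 762 to 2357). These bounds and intervals cover counting error only. The rule had used the same counts, so a ratio far above 1 follows from the selection.

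The smallest ratios belonged to 2 members with reads in several other samples. ENSCAFG00000023339 had 12 reads in 10 other samples, 7 of them in other cell lines, and a ratio of 51.7 (interval 26.3 to 109). ENSCAFG00000036767 had 17 reads in 11 other samples, 11 of them in lymphomas, and a ratio of 69.0 (interval 40.2 to 125). B-cell lymphoma replicates 2 and 7 each held 4 of these reads, at 0.935 and 0.822 CPM. ENSCAFG00000023339 had no read in 25 of the other 35 samples and ENSCAFG00000036767 none in 24.

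The residual reads were unevenly spread over the kinds of sample. Pooled over samples, the members together had 1.42 CPM in the 15 samples of other cell lines (62 reads on 19 members) and 0.563 CPM in the 16 lymphomas (28 reads on 11 members). They had 1.25 CPM in controls 1 to 3 (9 reads on 6 members) and 4.35 CPM in control replicate 4 (10 reads on 8 members). By sample, the summed level ran from 0.952 CPM to 1.90 CPM in OSW with a median of 1.56 CPM. It ran from 1.26 to 2.04 CPM in CLBL-1, from 0.298 to 1.52 CPM in CLBL-1M, and was 2.80 CPM in GL-1. In the B-cell lymphomas it ran from 0 to 1.23 CPM with a median of 0.391 CPM. The range of OSW, the other T-cell line, overlapped those of both CLBL-1 and CLBL-1M.

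Control replicate 4 held the highest summed level outside CL-1. Of the 22 members with a read elsewhere, 6 had their highest other level in this library. It also had reads on 19668 genes, more than the 14437 to 18363 of the other samples outside CL-1. Its share of the members' residual reads in relation to its source label was not tested. Without control replicate 4 in the rule, the number of members was 27 instead of 24.

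**Figure D2:**
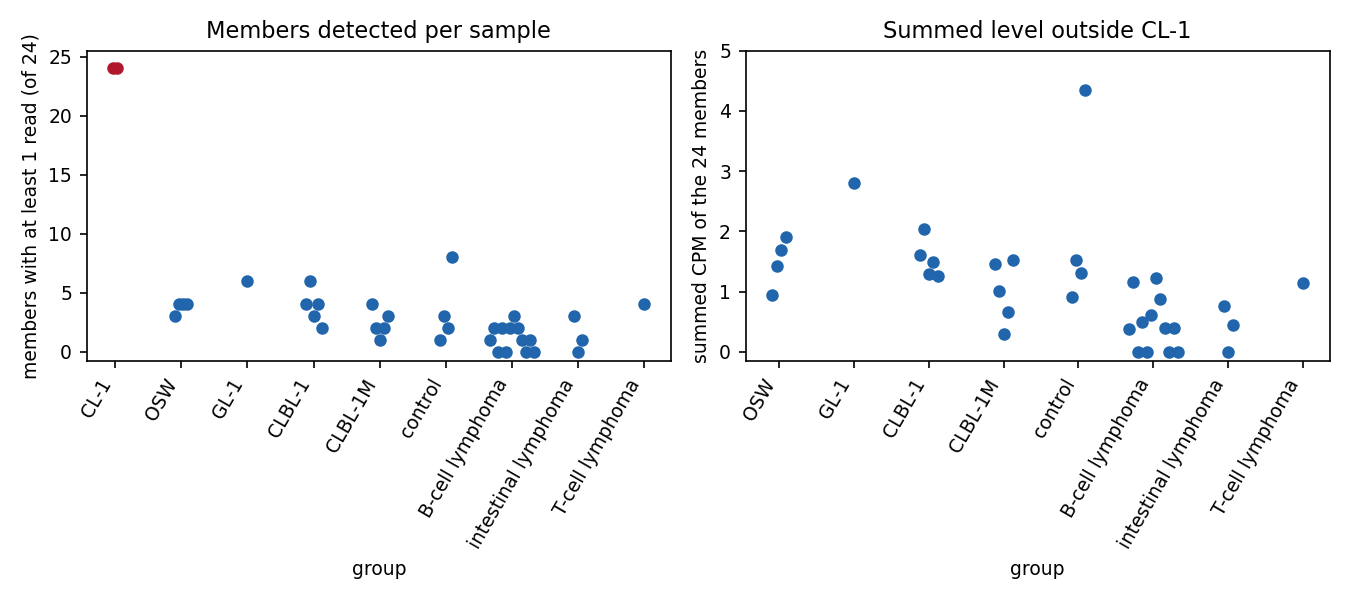
Left, number of the 24 members with at least 1 read in each sample, by group; right, summed CPM of the members in each sample outside CL-1, with 1 point per sample. All 24 members have reads in both CL-1 samples, no other sample has reads on more than 8, and control replicate 4 has the highest summed level outside CL-1 with 4.35 CPM.

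The limits of the rule cut through a continuum. Just inside the limit of 5 CPM lay ENSCAFG00000034372 (5.15 and 5.27 CPM), ENSCAFG00000037857 (6.19 and 5.58 CPM) and ENSCAFG00000005453 (5.84 and 8.68 CPM). Just outside lay ENSCAFG00000039347 (5.50 and 4.65 CPM), ENSCAFG00000015952 (4.47 and 8.68 CPM) and ENSCAFG00000019025 (4.47 and 6.82 CPM). Just inside the limit of 1 CPM lay ENSCAFG00000013623, whose highest other level was 0.989 CPM in control replicate 3, ENSCAFG00000031459 (0.947 CPM) and ENSCAFG00000036767 (0.935 CPM). Just outside lay ENSCAFG00000024298 (1.02 CPM in control replicate 2), ENSCAFG00000001866 (1.32 CPM in control replicate 3) and ENSCAFG00000005441 (1.40 CPM in GL-1).

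Without the ids in the study's 2 lists, 10333 genes reached 5 CPM in both CL-1 samples. Of these, 83.7% also reached 1 CPM in all other 35 samples, while the members made up 0.232%. A further 21 genes were kept out by 1 other sample, 20 genes by 2 and 12 genes by 3. Of these 21, 7 were kept out by a control, 6 by intestinal lymphoma replicate 3 and 5 by GL-1. ENSCAFG00000009872, at 96.2 and 89.0 CPM in CL-1, was kept out by 3.06 CPM in control replicate 2 and did not exceed 0.505 CPM in any of the others. ENSCAFG00000001450, at 72.9 and 67.0 CPM, was kept out by 2.10 CPM in GL-1. For ENSCAFG00000002316 the other sample was in fact the higher one, with 32.8 CPM in intestinal lymphoma replicate 3 against 5.50 and 6.51 CPM in CL-1. These 3 genes were picked after their values were seen.

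**Figure D3:**
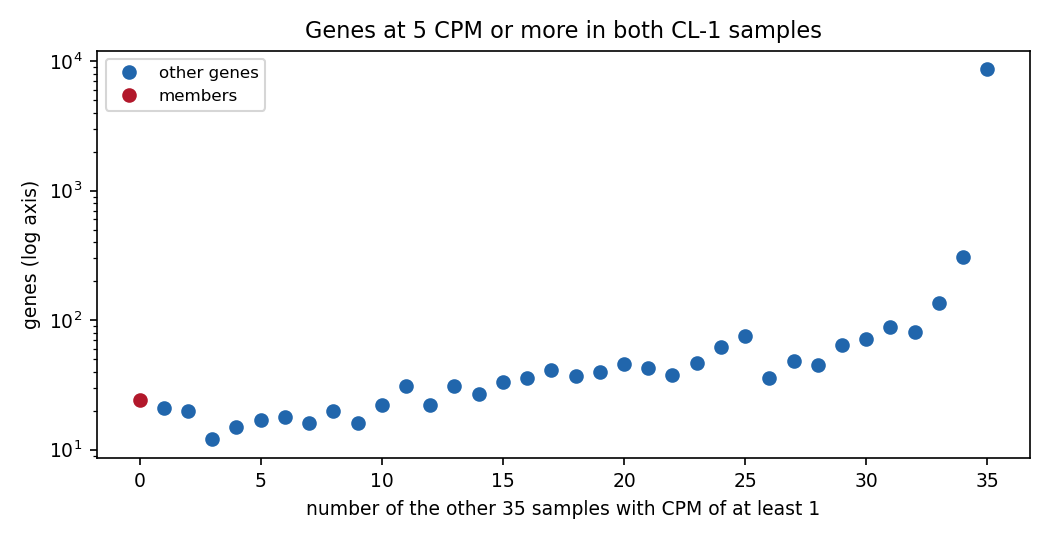
Number of genes (log axis) by how many of the other 35 samples had at least 1 CPM, over genes with 5 CPM or more in both CL-1 samples. The 24 members stand at 0, counts of 12 to 21 genes follow for 1 to 4 other samples, and most genes (83.7%) reached 1 CPM in all 35.

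A limit relative to the other samples, chosen after seeing the data, gave a different view of the same line. Genes at 5 CPM or more in both CL-1 samples and at least 10 times above the highest other sample numbered 48, of which 21 were members. Among the others, ENSCAFG00000016731 had 685 and 695 CPM in CL-1 and at most 3.08 CPM in any other sample. ENSCAFG00000023994 had 335 and 373 CPM in CL-1 and at most 1.51 CPM elsewhere. Both, picked after their values were seen, had more reads than any member, and the fixed limit of 1 CPM alone kept them out. The 3 members that did not reach a 10-fold distance were ENSCAFG00000036767, ENSCAFG00000023339 and ENSCAFG00000037857.

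The same rule was counted for the other groups. It gave 19 genes for OSW with 4 samples, 36 for GL-1 with 1 sample, 25 for the single T-cell lymphoma, 7 for the controls, and 0 for CLBL-1 with CLBL-1M, for the B-cell lymphomas and for the intestinal lymphomas. The groups differ in their number of samples, and a gene must pass in every sample of its group. Counted library by library, with all samples of other groups below 1 CPM, CL-1 gave 27 and 26 genes and OSW 28 to 31. GL-1 gave 36, the controls 14 to 48, and the CLBL-1 and CLBL-1M samples 1 to 5, where CLBL-1 and CLBL-1M were treated as 1 group. The number of genes private to a CL-1 library thus lay within the range of the other samples.

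The study's list of differentially expressed long non-coding RNAs starts at ENSCAFG00000032813. Of the 24 members, 5 (20.8%) are numbered above this id. These are ENSCAFG00000034372, ENSCAFG00000036337, ENSCAFG00000036767, ENSCAFG00000037857 and ENSCAFG00000037981. In that range lay 1.98% of the genes at 5 CPM or more in both CL-1 samples and 24.7% of all ids. Of the long non-coding RNAs in that list, 1 met the same limits and was left out by the rule. This was ENSCAFG00000038359, with 62.5 and 78.7 CPM in CL-1 and at most 0.435 CPM elsewhere. Whether each id in this range is non-coding was not analysed here.

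The members did not form runs. A run was defined as at least 2 members with at most 5 ids between them when all ids were sorted by number. No run was found, nor was one found when 10 ids were allowed. The closest members, ENSCAFG00000023339 and ENSCAFG00000023386, had 19 ids between them, and the median gap was 751 ids. Neighbouring id numbers are often, though not always, neighbouring genes, and genomic distances were not analysed here.

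The 240 non-member ids within 5 rows of a member describe ids numbered nearby, which need not be genes that lie nearby. Of these neighbours, 87 (36.3%) had at least 1 CPM in both CL-1 samples, against 38.7% of all ids, and 59 (24.6%) had no read in any sample, against 22.7%. By edgeR's quasi-likelihood test, 109 of the neighbours could be tested. Of these, 5 (4.59%) were higher in CL-1 than in controls at an adjusted p of at most 1e-05, close to the 4.54% among all 15162 genes tested. Lower in CL-1 were 9 (8.26%), beside 4.23% among all genes. The median log2 fold change was -0.58 over the neighbours and -0.23 over all genes. Against OSW, 2 neighbours were higher (1.83%, beside 1.83% of all genes) and 4 were lower (3.67%, beside 2.25%). Both CL-1 samples lay above every other sample for 11 of the 109 neighbours (10.1%), beside 8.68% of all genes. The shares called higher thus lay near those of all genes. Without control replicate 4, 4 of 108 neighbours were higher (beside 3.74% of all genes) and 10 were lower (beside 4.36% of all genes). Against control replicate 4 alone, 0 of 106 were higher (beside 0.114% of all genes) and 3 were lower (beside 1.62% of all genes).

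**Figure D4:**
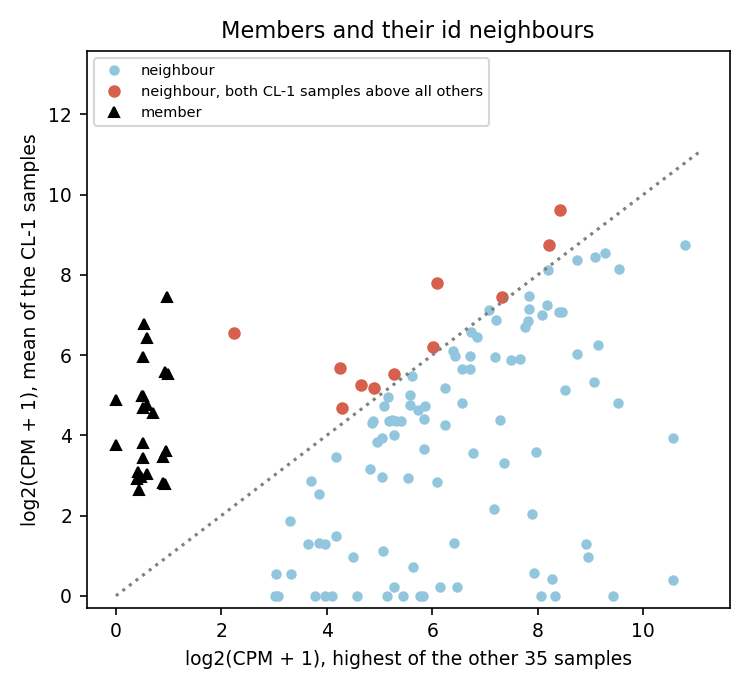
Mean level of the CL-1 samples against the highest level of the other 35 samples, both as log2(CPM + 1), for the 24 members (triangles) and the 109 tested id neighbours (circles). Most neighbours lie on or below the dotted line of equal levels, and 11 (red) have both CL-1 samples above all others; ENSCAFG00000006709 is the neighbour that lies nearest to the members.

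Single members nevertheless had neighbours that were high in CL-1. ENSCAFG00000006709, 5 rows before ENSCAFG00000006714, had 97.6 and 88.4 CPM in CL-1, 2.28 to 3.63 CPM in the controls, at most 0.356 CPM in OSW and at most 3.74 CPM in the B-cell lymphomas. It was higher in CL-1 than in OSW (log2 fold change 8.66, edgeR adjusted p = 3.36e-07), while against controls (5.01, edgeR adjusted p = 1.79e-05) it missed the threshold. ENSCAFG00000006713, 1 row before the member, had 43.6 and 56.4 CPM in CL-1 and at most 18.1 CPM elsewhere (log2 fold change against controls 2.32, edgeR adjusted p = 0.0161). ENSCAFG00000006710, 4 rows before, lay at 112 and 119 CPM in CL-1 and at 58.8 to 146 CPM in the other samples. ENSCAFG00000006711 and ENSCAFG00000006712, which lie between these ids, had at most 0.687 CPM in any sample.

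On the other side of ENSCAFG00000006714, 2 rows further, lies FLT3 (ENSCAFG00000006716), the receptor tyrosine kinase of early blood progenitors and dendritic cells. FLT3 had 0.687 and 1.24 CPM in CL-1, 30.1 to 42.0 CPM in the controls, 0.317 to 2.49 CPM in OSW and 496 CPM in GL-1. Its medians were 1.62 CPM in CLBL-1, 1.01 CPM in CLBL-1M, 3.12 CPM in the B-cell lymphomas and 3.57 CPM in the intestinal lymphomas. The T-cell lymphoma had 5.73 CPM. The study had reported FLT3 as lower than in controls in every group except GL-1. By the fit used here, FLT3 was lower in CL-1 than in controls (log2 fold change -5.15, edgeR adjusted p = 5.98e-06). Without control replicate 4 the log2 fold change was -5.28 (edgeR adjusted p = 8.93e-06). ENSCAFG00000006715, between the member and FLT3, had 25.7 and 25.8 CPM in CL-1 and 14.6 to 21.1 CPM in the controls. Among the 10 ids around this member, FLT3 was the one called lower than in controls, and none was called higher.

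**Figure D5:**
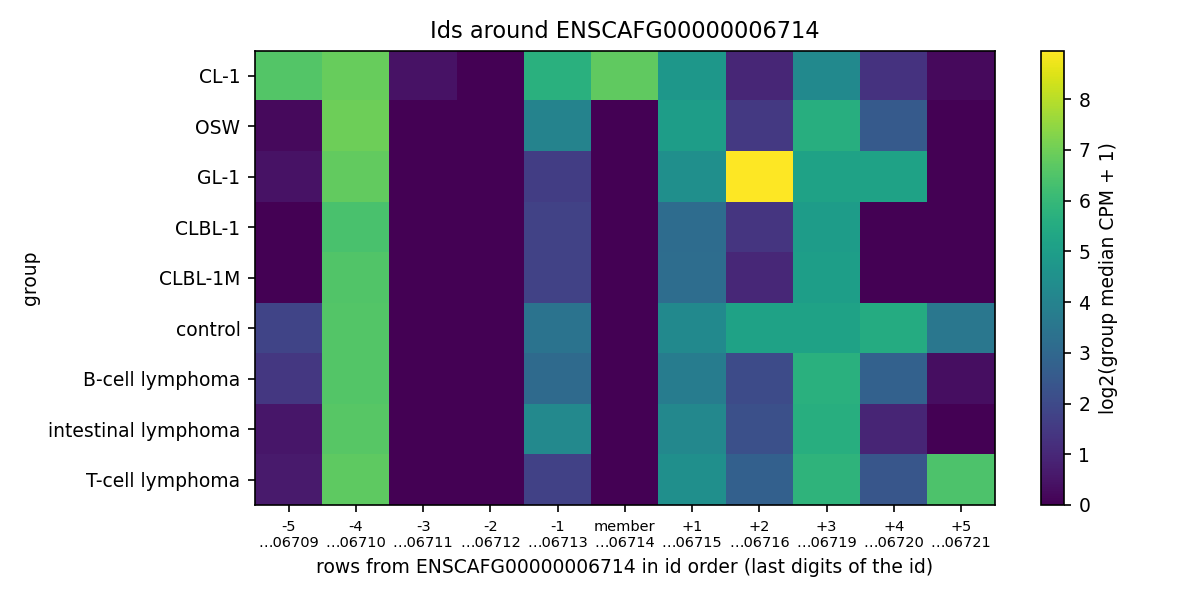
Group median level as log2(CPM + 1), by colour, for the 11 ids from 5 rows before to 5 rows after ENSCAFG00000006714, with 1 line per group. The member is coloured in CL-1 alone, ENSCAFG00000006709 is high in CL-1 and low elsewhere, and FLT3 (2 rows after) is highest in GL-1 with 496 CPM.

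ENSCAFG00000031459, the most abundant member, lay between an id that was higher and an id that was lower in CL-1 than in controls. ENSCAFG00000031458, 1 row before, had 248 and 304 CPM in CL-1 and a control median of 95.5 CPM (log2 fold change 1.55, edgeR adjusted p = 5.82e-06), but OSW had a median of 242 CPM. Without control replicate 4 its adjusted p was 2.33e-05 by edgeR, which missed the threshold. ENSCAFG00000031460, 1 row after, had 0.344 and 0.620 CPM in CL-1 and a control median of 177 CPM (log2 fold change -8.47, edgeR adjusted p = 1.21e-07).

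The other neighbours called higher than in controls lay near 3 members. ENSCAFG00000008612 and ENSCAFG00000008613, 4 and 5 rows after ENSCAFG00000008607, had 225 and 218 CPM and 107 and 119 CPM in CL-1, with control medians of 18.2 and 16.3 CPM. In OSW the medians were 53.3 and 61.9 CPM, and ENSCAFG00000008613 reached 224 CPM in intestinal lymphoma replicate 2, above both CL-1 samples. The log2 fold changes against controls were 3.49 (edgeR adjusted p = 1.63e-07) and 2.78 (edgeR adjusted p = 8.18e-06). Without control replicate 4, ENSCAFG00000008613 missed the threshold (edgeR adjusted p = 5.16e-05). ENSCAFG00000008601, 4 rows before the same member, moved the other way, with 26.8 and 27.0 CPM in CL-1 and a control median of 366 CPM (log2 fold change -3.73, edgeR adjusted p = 7.84e-10). ENSCAFG00000023338, directly before ENSCAFG00000023339, had 733 and 838 CPM in CL-1 beside a control median of 39.9 CPM and an OSW median of 256 CPM (3.48, edgeR adjusted p = 5.1e-06). ENSCAFG00000031248, 2 rows after ENSCAFG00000031246, had 445 and 412 CPM beside a control median of 74.3 CPM (2.53, edgeR adjusted p = 4.8e-08). Its OSW median was 163 CPM, and the highest other sample was CLBL-1M replicate 1 with 296 CPM. ENSCAFG00000023333, 4 rows before ENSCAFG00000023339, was called only without control replicate 4 (log2 fold change 4.04, edgeR adjusted p = 1.95e-06), with 43.3 and 46.5 CPM in CL-1. It had a median of 26.5 CPM in OSW and reached 37.6 CPM in CLBL-1 replicate 4.

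Against OSW, the neighbours called higher were ENSCAFG00000006709 and ENSCAFG00000008143, and those called lower were ENSCAFG00000002142, ENSCAFG00000005955, ENSCAFG00000008601 and ENSCAFG00000019740. ENSCAFG00000008143, 2 rows before ENSCAFG00000008149, had 40.9 and 46.2 CPM in CL-1 and a median of 0.498 CPM in OSW (log2 fold change 6.01, edgeR adjusted p = 4.23e-08), but reached 47.9 CPM in B-cell lymphoma replicate 6. ENSCAFG00000002142, directly after ENSCAFG00000002141, had 0 and 0.620 CPM in CL-1 and a median of 1239 CPM in OSW (-11.82, edgeR adjusted p = 3.79e-06). ENSCAFG00000005955, 1 row before ENSCAFG00000005957, had 2.06 and 0.310 CPM in CL-1 and a median of 22.1 CPM in OSW (-4.26, edgeR adjusted p = 4.7e-07).

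The 6 remaining neighbours called lower than in controls lay next to members of the middle and lower tiers. ENSCAFG00000003210, 4 rows after ENSCAFG00000003201, had 0 reads in both CL-1 samples and a median of 34.4 CPM in controls, and OSW also had a median of 0 CPM. ENSCAFG00000005449, 3 rows before ENSCAFG00000005453, had 16.2 and 12.4 CPM in CL-1 and a control median of 1059 CPM (log2 fold change -6.16, edgeR adjusted p = 3.86e-06). For ENSCAFG00000008159, ENSCAFG00000005954, ENSCAFG00000023345 and ENSCAFG00000019740 the log2 fold changes lay between -4.01 and -2.02. Each of these genes still had 6.51 CPM or more in both CL-1 samples. All 6 stayed past the threshold without control replicate 4. ENSCAFG00000013617, 5 rows before ENSCAFG00000013623, was called lower only without that library (log2 fold change -3.06, edgeR adjusted p = 9.43e-06). In a fit of only CL-1 and the controls, 2 of 13597 genes were called higher and 0 lower. None of the 9 neighbours called lower, FLT3 included, kept its call there. Of the 5 neighbours called higher, at most 2 can have kept theirs, so the limit holds for both directions.

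Of the 24 members, 20 passed the filter on low levels and entered the edgeR fit, and the 4 that did not were ENSCAFG00000023339, ENSCAFG00000034372, ENSCAFG00000036337 and ENSCAFG00000037857. Of the 20, 5 passed the threshold of 1e-05 both against controls (beside 4.54% of all genes called higher) and against OSW (beside 1.83%), all higher in CL-1. These were ENSCAFG00000031459, ENSCAFG00000006714, ENSCAFG00000031246, ENSCAFG00000031769 and ENSCAFG00000025559. At an adjusted p of at most 0.05, all 20 passed in both contrasts, beside 3442 and 2080 of all 15162 genes called higher. At 1e-05, 1 passed in each contrast with DESeq2, beside 952 and 494 of 14993 genes called higher. With the replicate number as a block, 1 passed in each, beside 416 and 166 of 15162 genes. In fits of only the compared groups, 0 of 20 passed against controls, beside 2 of 13597 genes called higher. Against OSW, 14 of 23 passed in such a fit, beside 737 of 12140 genes. The rule had used these same values, so nothing is read from these counts.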

How the data were processed

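RNA-seq of 37 canine samples was used. Per the labels and the study's methods, the authors mapped reads to CanFam3.1 with BWA, used Picard and SAMtools to drop duplicate reads and poor alignments, and counted reads per Ensembl gene with HTSeq 0.6.1. The deposited values are raw read counts per gene and sample. Strand handling was not given in the sources used here. Between 68.0% and 82.9% of counted reads fell on no gene and, with the ambiguous reads, stayed out of all totals. A gene that shares reads with a near-identical copy or an overlapping gene can be undercounted.

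CPM was computed from the count and the sample's total over gene ids. Members had at least 5 CPM in both CL-1 samples and below 1 CPM in the other 35. The ids in the study's lists of differentially expressed microRNAs and long non-coding RNAs were left out. The members and lists were chosen with earlier results of these data known. Groups followed the titles. The genes named in the text were the 15 members with the highest mean level, members without a read elsewhere, the 3 genes nearest to each limit on either side, and id neighbours called against controls or OSW. Ids of the B cell receptor list are named where they were called against OSW. The other members are named to account for all 24, and other neighbours, such as those around ENSCAFG00000006714, were chosen after their values were seen.

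CL-1 was compared with controls and with OSW by edgeR 4.0.16 in R 4.3.3, with the quasi-likelihood test on counts of all 37 samples in 8 groups (the T-cell and intestinal lymphomas joined), TMM normalisation and Benjamini-Hochberg adjustment. Genes were kept whose highest CPM lay above the 40th percentile. A gene was called at an adjusted p of at most 1e-05. The fit was tested on data simulated with the same spread for every gene and group. Such data cannot show how its calls hold where groups differ in spread. DESeq2 1.42.0, other scalings, filters and left-out samples were alternatives. The files' ids were not paired with symbols, so the planned lists of cell type markers, gene families and sequence features were not run.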

Additional observations from a re-analysis of the deposited data

How the results depend on the processing

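The number of members followed the limits: it was 37 at 3 CPM or more in CL-1, 14 at 10 CPM or more, 13 with the other samples below 0.5 CPM, 41 with them below 2 CPM, and 14 after every sample was thinned to the lowest total. The added limit of a 10-fold distance gave 48. Without single libraries it ran from 24 to 30, the highest without intestinal lymphoma replicate 3. TMM scaling gave 24 genes and DESeq2 size factors 23, of which 23 were shared with the members in each case. No run of neighbouring ids was found with 1, 5 or 10 rows allowed. Of the id neighbours, 4.59% were called higher than in controls within 5 rows, 9.52% (2 of 21 tested) within 1 row and 5.19% within 10 rows.

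CL-1 differed from controls in 1330 genes and from OSW in 619. At an adjusted p of at most 0.05 the counts were 8005 and 4673, with DESeq2 2700 and 1302, and in fits of only the compared groups 2 and 1744. With control replicate 4 as the sole control, 260 genes were called, and without it 1213. Leaving out single samples gave 280 to 1265 genes against controls and 189 to 611 against OSW. The lowest counts came without CL-1 replicate 1 (335 and 208) or CL-1 replicate 2 (280 and 189), where the lone CL-1 sample was assumed to vary like the other groups. The share of calls lower in CL-1 than in controls was 48.2%, and 64.7% with DESeq2. RLE scaling moved the median log2 fold change over all genes from -0.23 to -0.39. For the changed counts the cause was not tested. With the replicate number as a block (replicate block), 871 genes differed from controls and 379 from OSW. Equal numbers did not deviate together throughout (correlations of deviations between -0.15 and 0.10 for the same number). With 2 CL-1 samples, the deviations from their mean mirror each other. These correlations therefore cannot decide whether samples with equal numbers were paired. Counts of a few reads limit every level below 1 CPM.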
